A study of Homo sapiens with 6 samples.

Results

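Interferon-stimulated genes are the antiviral and signalling genes that cells switch on when an interferon binds its receptor. A list of 49 such genes was followed here, out of 18365 genes that the array names by a single symbol. They were chosen by symbol, with earlier results of these data known, and all 49 had at least 1 probe (72 probes of 31741 on the array). Where a gene had several probes, the one with the highest mean over the 6 arrays stands for it, and the others serve as a check. The samples were HM20 cells, which the labels assign to A549, an established human lung adenocarcinoma line. The labels describe stable clones expressing SFRP1, SFRP2, SFRP3, SFRP4 or SFRP5 and a Mock population, all after 24 hours with Wnt3a. SFRPs are secreted Frizzled-related proteins, which can bind Wnt ligands outside the cell. The sources used here do not say what the Mock cells carry or whether any interferon was added. Each population had 1 array, so a difference between a clone and mock includes clone-to-clone variation and array error that were not measured. All 5 comparisons share the same mock array. The values are linear intensities, and differences are log2(intensity + 1) of a clone minus mock.

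The label of each clone was checked against its own SFRP gene. The SFRP1 probe read 88063 in the SFRP1 clone, against 58836 in mock, but 110461 in the SFRP3 clone. The probes of SFRP2, FRZB (the gene of SFRP3), SFRP4 and SFRP5 differed from mock by -0.31, -0.12, -0.34 and -0.65 in the clones that carry those labels. The labels were therefore not borne out by these probes, whose position relative to the expressed insert is not known here, and each clone is named by its label. Of 10 genes listed for A549 epithelium, 9 were measured and 6 reached the median of all values (intensity 641.8) on at least 1 array. NQO1, which A549 cells are known to express strongly, read 62.3 to 110 on the 6 arrays, and ALDH1A1 read 304 to 455. EPCAM read 249 to 419. AKR1C1, an aldo-keto reductase gene known to be strong in A549 cells, read 842 to 2459, and the keratin gene KRT8 read 455 to 2119. AKR1B10, also on the list, read 223 to 934. NQO1, ALDH1A1 and EPCAM, dim on all arrays, therefore went against the label. AKR1C1, AKR1B10 and KRT8 reached the median of all values, but only AKR1C1 did so on all 6 arrays. The labelled line was taken as given. Of the 9 genes, 4 were 2-fold lower than mock in SFRP1, 3 in SFRP2, 1 in SFRP3, 3 in SFRP4 and 1 in SFRP5. Of all genes, 3.20%, 3.15%, 4.25%, 6.66% and 4.94% were 2-fold lower in these clones. KRT8 alone was 2-fold higher, in SFRP5 (1.25), where 5.24% of all genes were higher. The medians of the 9 genes were -0.95, -0.24, -0.05, -0.92 and 0.07 in SFRP1 to SFRP5. KRT19 differed by -3.33 in SFRP1 and -3.56 in SFRP4 but by 0.03 in SFRP3, CDH1 by -1.76, -0.92 and 0.74, and KRT7 by -1.55, -2.87 and -2.53 in those clones. The leukocyte markers PTPRC and LYZ lay under the 10th percentile of every array. The 10 measured leukocyte markers summed to 10683 to 15644 in the clones, against 11686 in mock, with CD3D and CD68 as the larger part. No marker of leukocytes, plasmacytoid dendritic cells, fibroblasts or endothelial cells was at 0. Only 22 of 31741 probes read below 0, on the SFRP4 array alone, so a reading above 0 does not show such cells. The 5 endothelial markers summed to 1843 to 2442 in the clones, against 5623 in mock. That gap lay in PECAM1, which read 527 to 718 in the clones, against 4134 in mock, whereas CDH5, VWF, KDR and TEK were within 2-fold of mock in every clone. The part of other cells in the results below was not tested, and in bulk RNA fewer expressing cells and less RNA per cell cannot be told apart.

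Interferons of type I (alpha and beta) and type III (lambda) bind separate receptors that feed the same pathway. Kinases of the JAK family phosphorylate STAT proteins, and a complex that contains STAT2 and IRF9 binds the interferon-stimulated response element, a DNA element near the start of many of the genes listed here. Their products sense viral RNA or DNA, degrade or sequester viral RNA, block entry or release of virus, and attach the ubiquitin-like protein ISG15 to other proteins. Many tumour cell lines express part of this set without added interferon.

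The response element has as its core a pair of GAAA blocks spaced by 2 bases, and this core was searched on both strands in RefSeq promoter windows (GRCh38.p14; 250 bases before to 50 bases after a gene's start). Windows were found for 41 of the 49 members, and 26 of these 41 (63.4%) held the core, against 1195 of all 27305 genes with a window (4.38%). The core of the gamma-activated sequence, TTCNNNGAA, was present for 13 of the 41 members (31.7%) and for 9.38% of all genes. The 8 members without an entry were IRF7, OAS2, OASL, IFIT2, MX2, IFITM2, USP18 and TRIM22. Of the 6 windows printed here, which belong to the members that differed most between the arrays and have an entry, 5 hold the core, in capitals. For genes with several windows, the one with the most matches was taken. In the IFI27 window the TTCNNNGAA match overlaps both cores. The OAS1 window holds a TTCNNNGAA match and no match to the GAAA core, which says only that these letters are not in this window. All 6 windows lie on the plus strand and read 5′ to 3′.
RSAD2, chr2:6877527-6877826: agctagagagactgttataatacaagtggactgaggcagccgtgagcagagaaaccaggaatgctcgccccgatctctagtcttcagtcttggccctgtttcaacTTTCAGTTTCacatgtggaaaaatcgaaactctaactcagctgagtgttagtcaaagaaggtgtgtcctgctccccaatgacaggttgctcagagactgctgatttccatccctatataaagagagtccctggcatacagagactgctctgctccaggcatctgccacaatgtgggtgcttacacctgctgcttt
IFI27, chr14:94110486-94110785: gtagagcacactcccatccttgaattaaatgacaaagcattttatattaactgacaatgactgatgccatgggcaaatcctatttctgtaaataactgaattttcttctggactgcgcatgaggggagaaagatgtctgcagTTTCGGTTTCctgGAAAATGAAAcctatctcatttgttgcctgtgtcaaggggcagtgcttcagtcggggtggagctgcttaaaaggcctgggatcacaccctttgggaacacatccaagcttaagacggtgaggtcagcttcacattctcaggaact
OAS1, chr12:112906712-112907011: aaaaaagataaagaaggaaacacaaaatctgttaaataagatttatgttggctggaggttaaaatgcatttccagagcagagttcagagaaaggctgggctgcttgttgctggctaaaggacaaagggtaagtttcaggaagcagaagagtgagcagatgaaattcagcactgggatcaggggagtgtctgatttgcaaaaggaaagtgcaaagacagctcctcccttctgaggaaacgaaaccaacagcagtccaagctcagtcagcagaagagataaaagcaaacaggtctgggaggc
IFIT3, chr10:89327747-89328046: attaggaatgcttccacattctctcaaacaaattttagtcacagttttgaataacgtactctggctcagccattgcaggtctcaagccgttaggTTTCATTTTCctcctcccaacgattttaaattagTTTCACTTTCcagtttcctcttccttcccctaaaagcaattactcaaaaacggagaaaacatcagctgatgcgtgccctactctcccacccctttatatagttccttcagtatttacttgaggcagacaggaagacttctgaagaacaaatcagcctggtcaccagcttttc
IFI44, chr1:78649539-78649838: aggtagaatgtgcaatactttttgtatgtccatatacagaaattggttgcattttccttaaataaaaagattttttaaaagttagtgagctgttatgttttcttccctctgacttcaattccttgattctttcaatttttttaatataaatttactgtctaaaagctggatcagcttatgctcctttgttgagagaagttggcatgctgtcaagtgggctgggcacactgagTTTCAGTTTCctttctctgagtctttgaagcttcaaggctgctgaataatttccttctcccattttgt
IFIT1, chr10:89392373-89392672: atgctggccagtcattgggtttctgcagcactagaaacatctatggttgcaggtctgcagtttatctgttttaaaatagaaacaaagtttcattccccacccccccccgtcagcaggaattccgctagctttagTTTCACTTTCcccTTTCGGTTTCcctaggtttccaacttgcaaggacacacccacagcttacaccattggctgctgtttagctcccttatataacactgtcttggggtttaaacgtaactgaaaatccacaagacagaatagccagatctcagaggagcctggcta

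Many of these genes were far below mock in the SFRP3, SFRP4 and SFRP1 clones, fewer were in the SFRP5 clone, and some were above mock in the SFRP2 clone. In the SFRP3 clone 34 of the 49 members were at least 2-fold lower than mock and 0 were 2-fold higher, where 4.25% of all genes were 2-fold lower and 3.09% higher. In the SFRP4 clone 23 members were 2-fold lower and 0 higher (all genes 6.66% and 5.64%). In the SFRP1 clone 21 were lower and 0 higher (all genes 3.20% and 4.89%). In the SFRP5 clone 9 were lower and 0 higher (all genes 4.94% and 5.24%), and under quantile normalization 14 were lower. The SFRP2 clone differed in direction, with 7 members 2-fold higher and 0 lower (all genes 2.57% and 3.15%). With each array centred on its median, the split in the SFRP2 clone was 6 higher and 1 lower, and among the 35 members that reach the median of all values by their mean, 4 were higher.

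**Figure D1:**
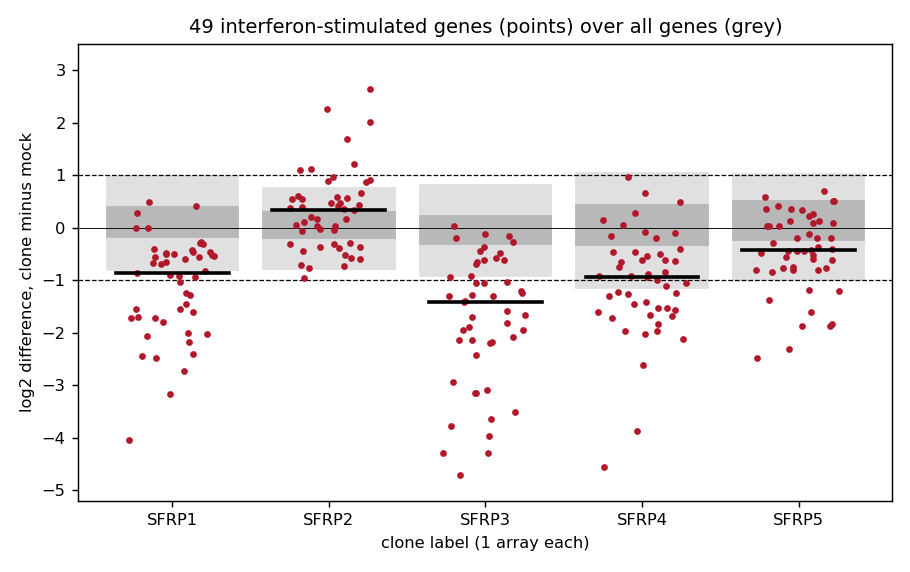
Log2 difference (clone minus mock) of the 49 interferon-stimulated genes in each clone, 1 point per gene, with a black bar at their median. The dark and light grey boxes hold the middle 50% and the middle 90% of all 18365 genes, and dashed lines mark 2-fold. The points lie mainly below the grey boxes in the SFRP3 clone and reach 2.65 in the SFRP2 clone.

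The median difference over the 49 members was -1.41 in the SFRP3 clone, -0.94 in SFRP4, -0.86 in SFRP1, -0.42 in SFRP5 and 0.34 in SFRP2. Over all genes the median was -0.05, 0.09, 0.16, 0.18 and 0.08 in the same clones. Relative to all genes, the members' median was therefore -1.36, -1.03, -1.02, -0.60 and 0.27. The SFRP2 array held the highest value of 26 members, where it held the highest value of 9.18% of all genes. The mock array was highest for 14 members (7.04% of all genes). The SFRP3 array was lowest for 28 members (30.1% of all genes) and the SFRP4 array for 13 (20.9% of all genes). The SFRP1 and SFRP3 arrays were highest for 0 of the 49 members (22.9% and 10.9% of all genes), and the SFRP2 and mock arrays were lowest for 0 (9.68% and 14.2% of all genes).

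The members also varied widely. Their median range over the 6 arrays was 2.32 log2 units, against 0.93 over all genes, and 29 of 49 spanned at least 2 log2 units (7.69% of all genes). A total of 40 members reached the median of all values on at least 1 array, and 35 also did so by their mean, so 5 reached it through their brighter arrays only. The other 9 members (DDX60, IFIT5, BST2, SAMD9L, TRIM22, XAF1, EPSTI1, CXCL10 and CXCL11) were dim on all arrays, and TRIM22 lay under the 10th percentile on 5 of the 6.

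**Figure D2:**
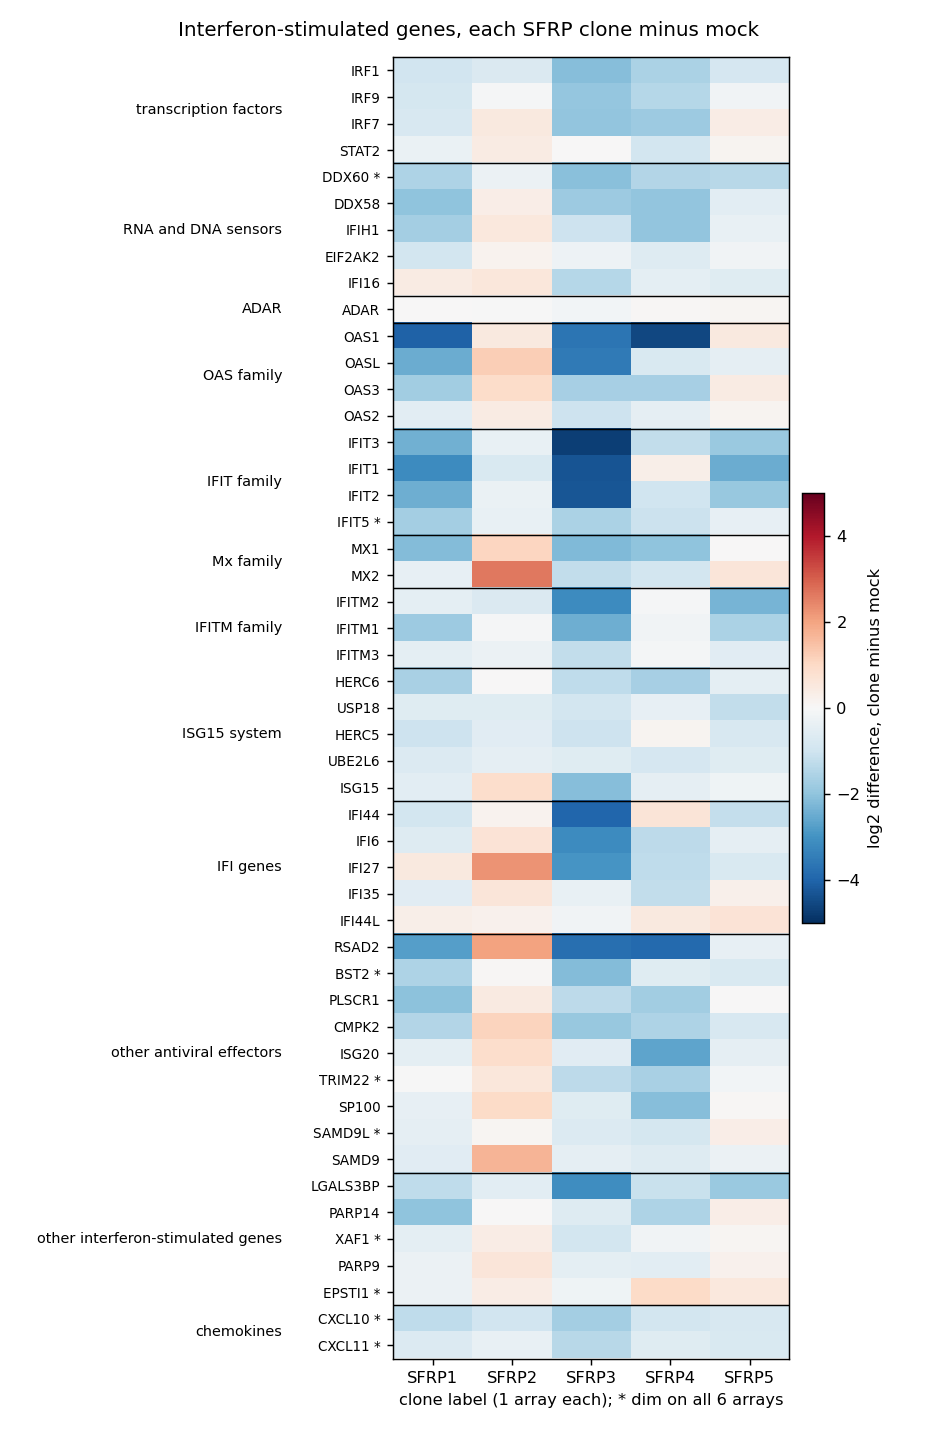
Log2 difference of each of the 49 members, grouped by role, in each SFRP clone minus mock (blue lower, red higher; an asterisk marks a gene that was dim on all 6 arrays). OAS1 is darkest in SFRP1, SFRP3 and SFRP4, IFIT1 in SFRP1, SFRP3 and SFRP5, and ADAR is near 0 throughout.

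Of the 4 transcription factors among the members, IRF1, IRF7 and IRF9 were lowest in the SFRP3 clone and STAT2 in the SFRP4 clone. IRF1, an activator of immune genes, read 6921 in the SFRP1 clone, 8016 in SFRP2, 3044 in SFRP3, 4483 in SFRP4 and 7421 in SFRP5, against 13332 in mock. IRF1 was thus below mock in every clone, by -0.73 to -2.13 on the log2 scale, and its second probe differed by -0.27 to -2.23. IRF7, which amplifies interferon induction, read 3449.9, 8436, 1563, 1714 and 7783 in the clones SFRP1 to SFRP5, against 6068 in mock. IRF7 was low in the SFRP3 (-1.96) and SFRP4 (-1.82) clones, while SFRP2 and SFRP5 lay above mock by 0.48 and 0.36. IRF9, the DNA-binding subunit beside STAT2, read 15359, 27113, 7279, 10419 and 24557 in SFRP1 to SFRP5, against 27936 in mock. Its lowest reading was again in SFRP3 (-1.94, and -1.39 on the second probe). In SFRP4 IRF9 differed by -1.42, but by -0.66 on the second probe. STAT2 was at most 0.94 from mock in any clone, with its lowest reading, 2113, in SFRP4, against 4041 in mock. The second STAT2 probe differed by only -0.14 in SFRP4, and by 0.29 in SFRP1, where the brightest gave -0.31.

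Among the sensors, the cytoplasmic RNA helicases were low in the SFRP1, SFRP3 and SFRP4 clones. DDX58 (RIG-I, now named RIGI) read 1459.6 in SFRP1, 7549 in SFRP2, 1694 in SFRP3, 1522 in SFRP4 and 4172 in SFRP5, against 5945 in mock. Its 3 low clones differed from mock by -2.03, -1.81 and -1.96, and its second probe by -1.40, -1.49 and -1.01. IFIH1 (MDA5) had the same low clones, with 805, 3851, 1274, 678 and 2046 in SFRP1 to SFRP5, against 2643 in mock. EIF2AK2 (PKR, a kinase that stops translation on binding double-stranded RNA) was within 2-fold of mock in all clones, at -0.91 to 0.17. IFI16, a DNA sensor, was 2-fold lower in SFRP3 alone, with 678 in that clone, against 1802 in mock. DDX60, a helicase linked to RIG-I signalling, was dim and differed by -0.31 to -2.07. ADAR, the editor of double-stranded RNA, read 10052 to 11708 in the clones, against 10978 in mock. Its range of 0.22 was the smallest of the 49 members.

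The OAS genes encode enzymes that respond to double-stranded RNA by making the messenger that activates RNase L, and OASL is a relative that enhances RIG-I signalling. OAS1 had one of the widest ranges. OAS1 read 337 in the SFRP1 clone, 7779 in SFRP2, 444 in SFRP3, 238 in SFRP4 and 7909 in SFRP5, against 5584 in mock. The SFRP1, SFRP3 and SFRP4 clones were thus 16.5-fold, 12.6-fold and 23.4-fold below mock, and the SFRP2 and SFRP5 clones lay just above it. Its second probe had the same low clones, with log2 differences of -2.71, -2.84 and -2.99. OAS3, which lies between OAS1 and OAS2 on chromosome 12, read 6132, 37994, 6408, 6333 and 27152 in SFRP1 to SFRP5, against 20271 in mock. The low clones of OAS3 were those of OAS1, at -1.72, -1.66 and -1.68. The brightest OAS2 probe differed by only -1.03 in SFRP3 and -0.46 in SFRP4, but its other 2 probes differed far more. One of them read 239, 7892, 123, 115 and 2108 in SFRP1 to SFRP5, against 3094 in mock, which is -4.64 in SFRP3 and -4.74 in SFRP4. The remaining OAS2 probe differed by -3.00 and -2.81 in those clones. The probes of OAS2 therefore disagree, and the transcripts that each detects were not known here. OASL read 1873, 24369.6, 916, 6253 and 7705 in SFRP1 to SFRP5, against 10489.8 in mock. OASL departed from OAS1 in the SFRP4 clone, where it was within 2-fold of mock (-0.75), while SFRP3 was lowest (-3.52).

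The IFIT genes, whose products bind viral RNA and lie on chromosome 10, were 2-fold lower in SFRP1 and SFRP3 for 4 of 4 members each, in SFRP4 for 2 of 4 and in SFRP5 for 3 of 4. Of the 4 OAS family genes, 3 were 2-fold lower in SFRP1, 4 in SFRP3, 2 in SFRP4 and 0 in SFRP5. IFIT1 read 6818 in the SFRP1 clone, 35912 in SFRP2, 3099 in SFRP3, 73762 in SFRP4 and 10974 in SFRP5, against 61013 in mock. The SFRP4 clone thus had the highest IFIT1 reading, where its OAS1 reading was the lowest of all arrays, and the SFRP5 clone was 5.56-fold below mock for IFIT1 while above it for OAS1. The second IFIT1 probe gave 0.54 in SFRP4 and -1.78 in SFRP5, with -3.01 in SFRP1 and -4.13 in SFRP3. IFIT2 read 1289, 5608, 355, 3523 and 1899 in SFRP1 to SFRP5, against 6976 in mock. IFIT3 read 1369, 5587, 276, 3066 and 1980.2, against 7249 in mock. Both were lowest in SFRP3 (-4.29 and -4.71), and both lay nearer to mock in SFRP4 (-0.99 and -1.24) than in SFRP5 (-1.88 and -1.87). IFIT5 was dim on all arrays, and its order differed, with -1.06 in SFRP4 and -0.42 in SFRP5.

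**Figure D3:**
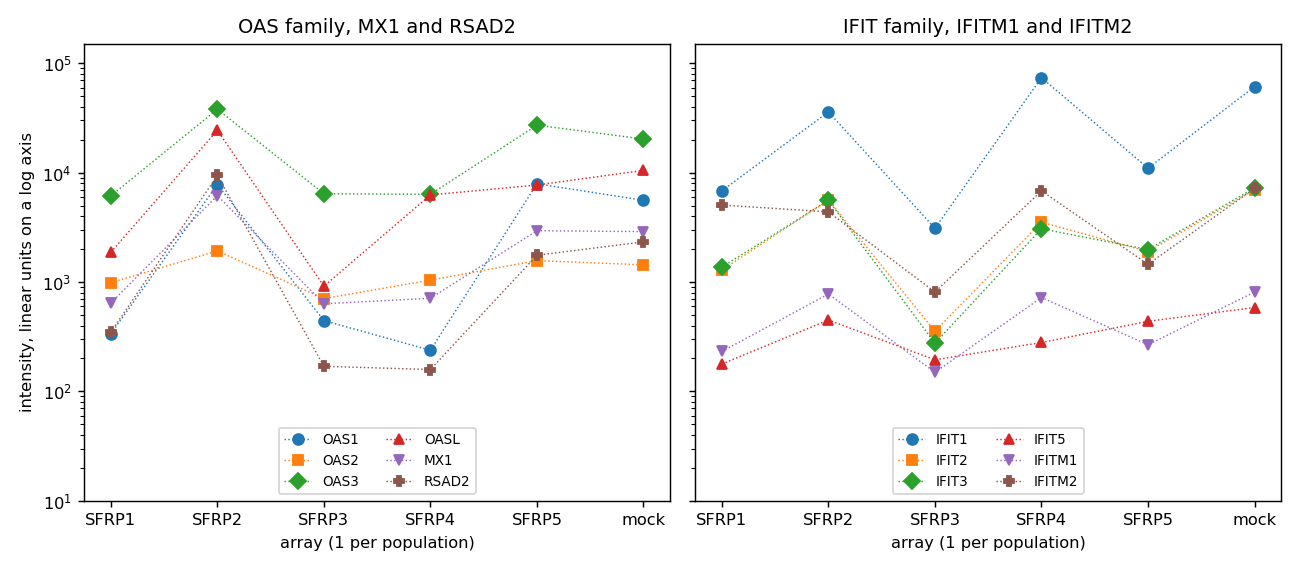
Intensity (log axis) of OAS family genes, MX1 and RSAD2 on the left and of IFIT family genes, IFITM1 and IFITM2 on the right, on the 5 SFRP arrays and the mock array, 1 point per array; dotted lines only link points of a gene, and levels of different genes are not comparable. OAS1 reads 238 in SFRP4 and 7909 in SFRP5, whereas IFIT1 reads 73762 in SFRP4 and 10974 in SFRP5.

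The IFITM genes encode membrane proteins that hinder virus entry. IFITM1 read 232, 777, 149, 721 and 267 in SFRP1 to SFRP5, against 809 in mock. IFITM2 read 5052, 4379, 810.5, 6812 and 1452, against 7179 in mock. In both, SFRP3 was lowest (-2.43 and -3.15) and SFRP4 was at mock level (-0.17 and -0.08), while SFRP5 was low (-1.60 and -2.31), as for IFIT1. In SFRP1 IFITM1 was 2-fold lower (-1.80) and IFITM2 was not (-0.51). IFITM3 differed less, at -0.10 to -1.21. These 3 genes are neighbours on chromosome 11 with closely related sequences, so signal of one may reach the probe of another.

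MX1 and MX2 encode dynamin-like GTPases that block virus replication. MX1 read 642 in SFRP1, 6167 in SFRP2, 633 in SFRP3, 711 in SFRP4 and 2945 in SFRP5, against 2889.8 in mock. MX1 had the low clones of OAS1 (-2.17, -2.19 and -2.02) and was 2-fold higher than mock in SFRP2 (1.09, or below 2-fold with median centring). MX2 read 93.0, 778, 51.3, 64.2 and 186, against 123 in mock, and lay under the 10th percentile in SFRP3 and SFRP4. Only its SFRP2 reading, 2.65 above mock, reached the median of all values.

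The ISG15 system attaches a ubiquitin-like tag to proteins. ISG15 itself read 18946, 49838, 6156, 19719 and 23505 in SFRP1 to SFRP5, against 27083 in mock. ISG15 was thus lowest in SFRP3 (-2.14) and highest in SFRP2 (0.88). The conjugating enzyme gene UBE2L6 was within 2-fold of mock in all clones, at -0.45 to -0.84. HERC5, the ligase for ISG15, differed by 0.15 in SFRP4 and by -0.58 to -1.05 in the other clones. Its neighbour on chromosome 4, HERC6, had low readings in SFRP1 (-1.61), SFRP3 (-1.29) and SFRP4 (-1.66). USP18, which removes ISG15 and dampens interferon receptor signalling, read 2299 to 4049 in the clones, against 5334 in mock. Its second probe read 777 to 902 in the clones, against 1723 in mock.

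Genes named IFI for interferon induction had their lowest readings mostly in the SFRP3 clone. IFI6, a mitochondrial and endoplasmic reticulum protein gene, read 2835 in SFRP1, 7054 in SFRP2, 498 in SFRP3, 1812 in SFRP4 and 3283 in SFRP5, against 4447 in mock. Its SFRP3 reading was 8.92-fold below mock, and the second probe differed by -3.19. IFI44 read 423, 899, 50.4, 1258 and 353 in SFRP1 to SFRP5, against 799 in mock. IFI44 was under the 10th percentile in SFRP3 (-3.96) and highest in SFRP4 (0.66), as IFIT1 was. IFI44L, its neighbour on chromosome 1, differed by -0.16 to 0.70, so the neighbours did not share the low reading in SFRP3. IFI27 read 265, 907, 23.8, 77.9 and 111, against 189 in mock. Its value in SFRP3 lay under the 10th percentile, and only SFRP2 (2.26) reached the median of all values. IFI35 was 2-fold lower in SFRP4 alone (5586, against 12990.5 in mock).

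Among the other antiviral effectors, RSAD2 (viperin, which makes a chain-terminating nucleotide) and its neighbour on chromosome 2, CMPK2 (a nucleotide kinase), differed alike. RSAD2 had the widest range of all members by its brightest probe. RSAD2 read 349 in SFRP1, 9416 in SFRP2, 169.6 in SFRP3, 159 in SFRP4 and 1758 in SFRP5, against 2327 in mock. The SFRP2 clone was thus 4.05-fold above mock, and the SFRP3 and SFRP4 clones were 13.6-fold and 14.6-fold below it. CMPK2 read 258, 1548, 189.8, 245 and 405, against 708 in mock, with SFRP2 at 1.13 and SFRP3 at -1.89. PLSCR1, a phospholipid scramblase gene, read 1951, 11059, 3332, 2464 and 8344, against 8154 in mock, but its second probe differed by only -0.49 to 0.45. ISG20, an RNA exonuclease gene, was 2-fold lower in SFRP4 alone, with 10578, 27054, 9832, 2384 and 10818 in SFRP1 to SFRP5, against 14660.5 in mock. SP100, a nuclear body component, was also lowest in SFRP4, with 1987, 5213, 1759, 614 and 2755, against 2676 in mock. SAMD9, an antiviral factor gene, stood out in SFRP2 alone, with 871, 4124, 943, 825 and 1046, against 1278 in mock. SAMD9L beside it on chromosome 7 was dim and within 2-fold of mock. BST2 (tetherin, which retains budding virus) was dim, with 165, 501, 105, 314 and 286, against 483 in mock. TRIM22, a ubiquitin ligase gene, was near the floor, and its differences of -1.60 to 0.56 have no order.

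The remaining members were mixed. LGALS3BP, a secreted glycoprotein gene, read 2970.2 in SFRP1, 4921 in SFRP2, 829.8 in SFRP3, 3284 in SFRP4 and 1980.2 in SFRP5, against 7076 in mock. LGALS3BP was 2-fold lower in every clone but SFRP2 and lowest in SFRP3 (-3.09). PARP14, an ADP-ribosyltransferase gene, read 2026, 8269, 5146, 2811 and 10345, against 8126 in mock. PARP14 was low in SFRP1 (-2.00) and SFRP4 (-1.53) but within 2-fold in SFRP3 (-0.66). Its partner gene PARP9 was within 2-fold by the brightest probe, at -0.54 to 0.59, but its second probe read 253 in SFRP1, 242 in SFRP3 and 171 in SFRP4, against 765 in mock. XAF1, a pro-apoptotic gene, and EPSTI1 were dim and within 2-fold of mock in all clones by their brightest probes. Their other probes were dim too and disagreed with these. In SFRP4 the EPSTI1 probes differed by 0.97, -1.29 and -0.15, and in SFRP5 by 0.52, 0.20 and 1.54, while the second XAF1 probe, under the 10th percentile on all arrays, differed by -1.19 in SFRP4. The chemokine genes CXCL10 and CXCL11, which attract T cells, were dim too. CXCL10 read 155, 194, 116, 198 and 214 in SFRP1 to SFRP5, against 376 in mock, and CXCL11 read 54.1 to 111 in the clones, against 145 in mock.

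Of the 49 members, 19 had 23 further probes. Each further probe was paired with the brightest probe of its gene in each clone. The brightest probe was 2-fold from mock in 33 of the 115 pairs. Among these 33, the further probe had the same sign in 32 and was 2-fold in the same direction in 24. A gene with several further probes enters more than once, as OAS2 in SFRP3 and SP100 in SFRP4 do. Restricted to the 14 further probes that reached the median of all values, the sign was the same in 23 of 23 pairs and 18 were 2-fold. Probes of the same gene share the arrays and are no replicates.

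**Figure D4:**
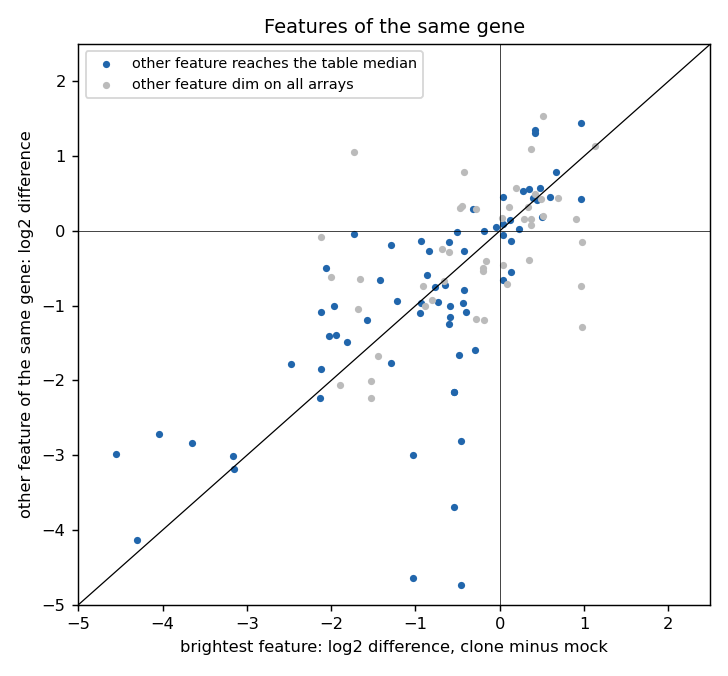
Log2 difference (clone minus mock) on the brightest probe of a gene (x axis) against another probe of the same gene (y axis), 5 points per further probe, with the line of equality. The blue points far below the line at x values of -1.03 to -0.46 are further probes of OAS2, which reach -4.74, and of PARP9, which reach -2.16.

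The upstream genes of the pathway, a list of 63 symbols of which 49 were measured, had medians of 0.16, 0.12, -0.07, 0.10 and 0.32 in SFRP1 to SFRP5. In the SFRP1 clone 1 of the 49 was 2-fold higher and 5 lower, in SFRP2 1 and 2, in SFRP3 1 and 6, in SFRP4 1 and 6 and in SFRP5 3 and 4. Of all genes, 4.89% were 2-fold higher and 3.20% lower in SFRP1, and 2.57% and 3.15% in SFRP2. The shares were 3.09% and 4.25% in SFRP3, 5.64% and 6.66% in SFRP4, and 5.24% and 4.94% in SFRP5. The ligand with the widest range was IFNL2, of the lambda interferons. IFNL2 read 119 in SFRP1, 1097 in SFRP2, 59.6 in SFRP3, 118 in SFRP4 and 246 in SFRP5, against 797 in mock. IFNL2 was thus high on the SFRP2 and mock arrays and low on the others. IFNL1 was dim on all arrays, with 379 in SFRP2, 25.96 to 142 in the other clones and 243 in mock. The lambda genes are close copies, so their probes may share signal. IFNB1 read 97.2 to 145 in the clones, against 114 in mock, and IFNA1 read 499 to 681, against 547 in mock.

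Receptor and kinase genes were closer to mock. IFNLR1, the lambda receptor subunit, read 645, 794, 963, 407 and 1201 in SFRP1 to SFRP5, against 479 in mock, which is 2-fold higher in SFRP3 (1.00) and SFRP5 (1.32). JAK2 was within 2-fold, at -0.91 in SFRP4 and 0.49 in SFRP3. TMEM173 (STING, the adaptor of cytosolic DNA sensing) read 1998, 2750, 1187, 4515 and 1739, against 7003 in mock. TMEM173 was therefore 2-fold lower in every clone but SFRP4 (-0.63), and lowest in SFRP3 (-2.56). MB21D1 (cGAS, the enzyme upstream of STING) read 1500 to 2223 in the clones, against 967 in mock. The feedback inhibitor gene SOCS1 was lower in SFRP3 (-1.18) and SFRP4 (-1.08), and SOCS3 differed by -0.71 to 0.93. DHX58, a RIG-I relative, was lower in SFRP3 (-1.02) and SFRP5 (-1.27). TRIM25, which ubiquitinates RIG-I, was lower in SFRP4 (-1.50), and MAVS, TBK1 and IRF2 were within 2-fold of mock. IRF5 read 3624 in SFRP5, against 1806 in mock, which is just past 2-fold.

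**Figure D5:**
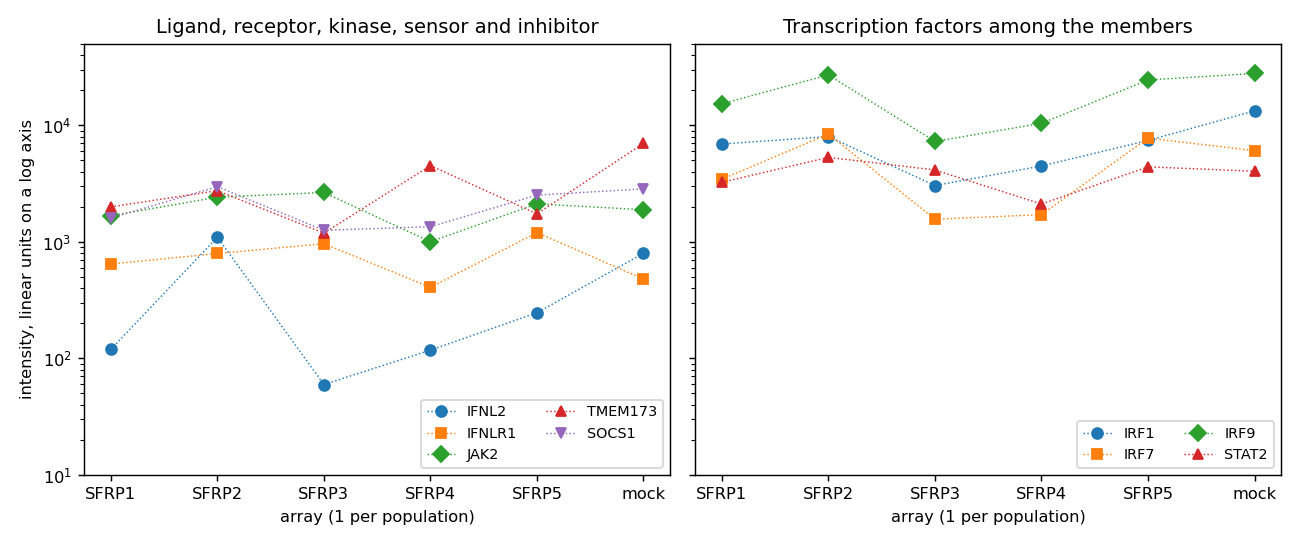
Intensity (log axis) of IFNL2, IFNLR1, JAK2, TMEM173 and SOCS1 on the left and of the transcription factor genes IRF1, IRF7, IRF9 and STAT2 on the right, on the 5 SFRP arrays and the mock array, 1 point per array; dotted lines only link points of a gene. IFNL2 reads 1097 in SFRP2, 59.6 in SFRP3 and 797 in mock.

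A further list of interferon-stimulated genes outside the 49 was read in the same way, with 51 of 53 symbols measured. Of these, DHX58, TRIM25 and TLR3 also stand on the pathway list. In the SFRP4 clone 19 of the 51 were 2-fold lower and 1 higher (all genes 6.66% and 5.64%). In SFRP3 13 were lower and 1 higher (all genes 4.25% and 3.09%). In SFRP1 8 were lower and 1 higher (all genes 3.20% and 4.89%). In SFRP5 5 were lower and 1 higher (all genes 4.94% and 5.24%). In SFRP2 4 were lower and 2 higher (all genes 3.15% and 2.57%), unlike the 0 lower and 7 higher among the 49 members. The 2 higher in SFRP2 were PARP12 (1.34) and TNFSF13B (1.59). The chemokine gene CCL5 read 2608 in SFRP1, 10501 in SFRP2, 2108 in SFRP3, 4175 in SFRP4 and 2446 in SFRP5, against 11058 in mock. APOBEC3G, a cytidine deaminase gene, read 305, 2104, 289.7, 694 and 370.0, against 1981 in mock. Both were low in SFRP1, SFRP3 and SFRP5, and nearer to mock in SFRP4 (-1.41 and -1.51) than in SFRP5 (-2.18 and -2.42). PARP10 (-3.54) and APOL6 (-3.12) were lowest in SFRP3, as was DTX3L (-1.67), the partner of PARP9. In SFRP4, TRIM5, TRIM14, TRIM21 and TRIM38 differed by -1.09, -1.26, -1.04 and -1.60, SP110 by -1.32 and TDRD7 by -1.25, while none of these 6 genes was 2-fold lower in SFRP3. TNFSF13B was higher in SFRP1 to SFRP4, at 1.03 to 1.73. The interferon-gamma targets CXCL9 (86.2 to 161) and IDO1 (133 to 203) were dim on all arrays. They do not stand for the list, of which 37 genes reached the median of all values on at least 1 array. Among these were IFI30 (12552 to 39902) and WARS (1776 to 7618).

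Across the 5 SFRP clones taken as a set against mock, no member passed the test. limma called 0 of the 49 members (lowest adjusted p = 0.9997) and 5 of 18365 genes in all (0.0272%), and 3 members had an unadjusted p below 0.05, against 2.38% of all genes. This fit has 4 residual degrees of freedom, takes its spread from clones of 5 different SFRP genes, and assumes that the 1 mock array varies like them. On the members' fitted probes the clones differed among themselves by up to 5.88 log2 units (RSAD2). This test therefore describes what the set has in common and not what any clone did.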

How the data were processed

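Gene expression was measured on one-colour Cy5 arrays, 1 for each of 5 SFRP clones and 1 for mock, grouped by the sample titles. The deposited table holds intensity values on a linear scale, as judged from the values. The sources used here name no scanner program and no method of background subtraction or scaling. Array medians lay between 599.6 and 689.0, and 22 values, all on the SFRP4 array, were below 0. The number of arrays limits the precision.

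Probes with 1 symbol in the platform annotation (24740) were used, with the brightest-mean probe per gene. Negative values were raised to 0 before log2(intensity + 1) was computed, which shrinks differences of dim genes. No filter was applied to the counts of members. Differences of at least 1 log2 unit (2-fold) were counted with no test. The 5 clones were compared with mock in limma 3.58.1 (R 4.3.3), two-sided, with Benjamini-Hochberg adjustment over 18365 genes. Tested on simulated data of this design, it called 46 of 50 genes at a log2 change of 5, and 32, 15 and 0 of 50 at changes of 3, 2 and 1. It also called 4 of 18165 genes simulated without a change. The simulated mock array was drawn with the clones' own spread, so the simulation could not test the assumption about mock. Changed genes were drawn from all genes, whose median range was 0.93 log2 units, against 2.32 for the members. The shares called therefore do not carry over to the members.

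The members, lists and tests were chosen with earlier results of these data known. The naming rule gives all 49 members, genes of the pathway list and the further list that span at least 1 log2 unit with a brightest array at the table's median or above, and the 15 genes outside these lists most like the members' mean profile. It also names the SFRP genes. Of further-list genes that meet the rule, NMI, LAMP3, ZC3HAV1, MOV10, BATF2, C19orf66, TMEM140, LY6E, APOBEC3F, ZNFX1, SHISA5, TOR1B and GMPR are not described above. The further-list genes that are described were picked for the text after their values were seen. So were CXCL9, IDO1, IFNB1, IFNA1, IFNL1 and the cell type markers, fixed as lists. Alternatives were quantile normalization, median centring, pseudocount 16, a floor at the 10th percentile, the mean over probes, 2 filters on dim probes, removal of on/off probes, a variance trend and leaving out each clone.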

Additional observations from a re-analysis of the deposited data

Results flagged for a closer look

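For 6 members the SFRP2 clone lay at least 2-fold above mock while another clone lay at least 2-fold below it. Each is 1 array, all share the mock array, and the difference was not tested. The share of all genes that meet both conditions was not counted, so this count is not set against other genes. OASL differed by 1.22 in SFRP2 and by -3.52 in SFRP3. MX1 differed by 1.09 in SFRP2 (below 2-fold with median centring) and by -2.19 in SFRP3, and MX2 by 2.65 and -1.25 in the same clones. IFI27 differed by 2.26 in SFRP2 and by -2.93 in SFRP3. RSAD2 differed by 2.02 in SFRP2 and by -3.87 in SFRP4. CMPK2 differed by 1.13 in SFRP2 and by -1.89 in SFRP3. The SFRP3 values of IFI27 and MX2 lay under that array's 10th percentile, and both genes reached the median of all values in SFRP2 only.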

How the results depend on the processing

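The filters and the removal of on/off probes cannot change a single member's value. Of the 1075 values that the other 5 settings could change, 1037 stayed on the same side of 2-fold, 29 passed it and 9 fell short of it, and no value of 2-fold or more changed sign. The counts of members at least 2-fold lower or higher in a clone stayed within 1.5 times, except that 14 members were lower in SFRP5 under quantile normalization (9 as reported), 1 member (CXCL10) was lower in SFRP2 under quantile normalization and under median centring (0 as reported), and 4 were higher in SFRP2 among genes filtered by their mean (7 as reported). The last filter leaves fewer genes, and for the others the cause was not tested. Median centring moved the median of all genes by -0.05 to -0.20, and quantile normalization by -0.17 to 0.03. Over all genes, 684 were then 2-fold higher and 784 lower in SFRP1 with median centring (898 and 588 as reported), 355 and 729 in SFRP2 (472 and 579), 479 and 876 in SFRP3 (568 and 780), 774 and 1523 in SFRP4 (1035 and 1223), and 546 and 1456 in SFRP5 (962 and 908). limma called 0 members under every alternative, including leaving out each clone, with 2 to 7 genes called in all and a lowest adjusted p of a member of 0.9990. Counts of members by unadjusted p are left out for these alternatives, because the share over all genes was not computed for them. No paired analysis was possible because each population has 1 array. Dim members, near the 10th percentile, have no reliable order.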

Other observations

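Genes outside the members, the pathway list and the further interferon-stimulated list were ranked by how closely their levels over the 6 arrays followed the mean profile of the 40 brighter members. Of 1046 such genes that span at least 2 log2 units and reach the median of all values on at least 1 array, 1 had a Pearson r of 0.9 or more and 3 had -0.9 or less. Under the same conditions 1 of 10 further interferon-stimulated genes reached 0.9. So did 7 of 26 members, but these help to form the profile. This is a description over 6 arrays that share 1 study, with no test. The highest was COL4A2, a basement membrane collagen gene (r = 0.93, Spearman's rho = 0.83, and r = 0.85 without the SFRP2 and SFRP3 arrays). COL4A2 read 8603 in SFRP1, 26119 in SFRP2, 4896 in SFRP3, 4728 in SFRP4 and 8804 in SFRP5, against 18596 in mock. Its partner chain COL4A1 had r = 0.82 and read 2619 to 14473 in the clones, against 15248 in mock. The other 13, from r = 0.89 to 0.76, were SYNPO, BTBD11, CEACAM1, KRT7, APOE, GABBR2, HRASLS2, PDE2A, ANKRD33B, SH3RF3, NUPR1, SNAI1 and CD44, of which KRT7 is also among the A549 markers. For CD44 the relation rests on the SFRP2 and SFRP3 arrays (r = 0.26 without them).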
